A study of Sus scrofa with 20 samples.

Results

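The ileal mucosa of suckling piglets was compared at 14 and 28 days of age on Affymetrix GeneChip Porcine Genome Arrays. The samples were chosen by their labels alone. They were the 3 arrays labelled S14D and the 4 labelled S28D, or 7 of the 20 arrays of the series, and each array carried the RNA of 1 piglet. All piglets were crosses of Landrace, Large white and Duroc from a commercial farm. Both groups were still with the sow, and per the methods suckling piglets had no access to the diet of the sow, so that age was what the labels set apart. The 4 S21D arrays of 21-day-old suckling piglets are given beside them where day 21 is of interest. The study drew its 30 piglets from 4 sows without stating which piglet came from which litter, and a part of litter in the differences with age cannot be told apart from them. The tissue was a scraped mucosa, which holds villi, crypts, lamina propria and, in the ileum, parts of Peyer's patches.

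In the first weeks of life the ileal enterocyte of a mammal takes up milk macromolecules whole. An apical endocytic system of clathrin, adaptors and multiligand receptors carries them into large lysosomes, where acid hydrolases digest them. As the gut matures this cell is replaced by an enterocyte that depends on hydrolysis in the lumen and, in the ileum, on the recovery of bile acids. In the same weeks the Peyer's patches, which are follicles rich in B cells, enlarge, and T cells, macrophages and IgA plasma cells fill the lamina propria.

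The values were log2 signals after gcRMA, in which a probe set without measurable signal lies close to the lowest value of the table, 2.08. Of the values in the 7 arrays, 41.5% lay within 1 log2 unit of it. The medians of the arrays ran from 5.07 to 5.35 in S14D and from 5.16 to 5.26 in S28D, and each array correlated with the mean of the rest of its group at r = 0.9856 or above. The labelled tissue was borne out by its markers. The ileal bile acid binding protein FABP6 lay between 13.27 and 15.87 in the 7 arrays, the epithelial adhesion molecule EPCAM between 14.44 and 15.17, and the microvillus protein villin (VIL1) between 13.06 and 14.13.

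The S14D arrays differed from each other in their markers of blood and lymphoid cells. A B cell score, the mean of 7 B cell genes after each was centred on its mean over the 20 arrays, was -0.20, -1.38 and -3.65 in S14D replicates 1, 2 and 3, and lay between 0.45 and 1.38 in S28D. The summed linear signal of these 7 genes was 5.31 to 15.1 in S14D and 18.7 to 30.9 in S28D, in units of 1000, and none of the 7 was near the lowest value in all arrays. Immature red cell genes stood out in S14D replicate 1 instead. AHSP, the chaperone of alpha globin, was 7.78 there, 4.24 in replicate 2 and 2.08 in replicate 3, and it was 2.08 in every S28D array. Of 6 erythrocyte genes 3 were lower and 1 higher in S28D, but 0 were lower without S14D replicate 1 or 2, without S28D replicate 2, 3 or 4, in the fit without S35D and 21W28D and in that of S14D and S28D alone, and 1 without S28D replicate 1. Their summed signal was 1.31 to 2.51 in S14D and 2.17 to 2.78 in S28D, in units of 1000, most of it beta globin. Results that follow the B cell score from array to array are named as such below, and since the tissue was measured as a whole, fewer cells of a type and less RNA per cell cannot be told apart.

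**Figure D1:**
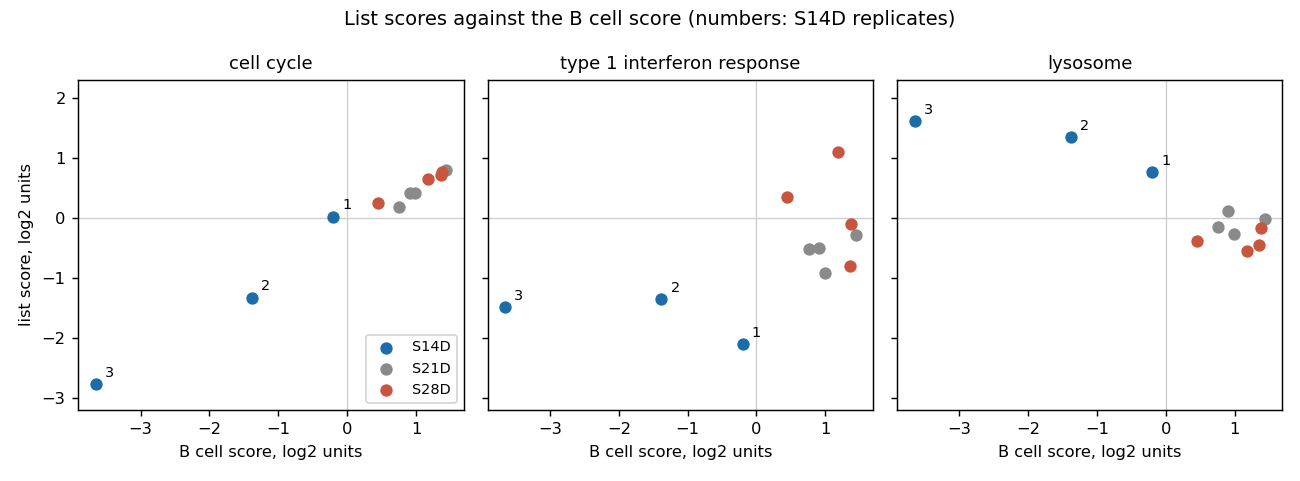
Scores of the cell cycle, interferon and lysosome lists (vertical axes, log2 units) against the B cell score (horizontal axis, log2 units) in each S14D, S21D and S28D array. The 3 S14D arrays are numbered by replicate: their cell cycle scores run from -2.77 to 0.02 beside B cell scores from -3.65 to -0.20, and their lysosome scores (0.76 to 1.61) lie above those of all S28D arrays (-0.55 to -0.17).

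Between S14D and S28D, 2803 of the 23999 probe sets tested (11.7%) differed at least 2-fold with an adjusted p below 0.05 in limma. Of these, 1333 (5.55%) were higher and 1470 (6.13%) lower in S28D, and the median difference over all probe sets was 0. All S28D arrays lay on one side of all S14D arrays for 27.3% of the probe sets tested, which is the background to any statement that the groups did not overlap. The falls reached further than the rises: 55 probe sets fell by 4 log2 units or more and 13 rose by as much. Leaving out an array removed calls in both directions. Of the 1470 lower probe sets, 748 (50.9%) were called again whichever of the 7 arrays was left out, against 349 of the 1333 higher ones (26.2%). The arrays that mattered most were S14D replicate 3, without which 1211 probe sets were called, and S14D replicate 2, without which 1671 were called. With the B cell score added to the fit as a covariate, 386 of the lower (26.3%) and 147 of the higher calls (11%) were made again. Named genes were read under 16 alternative fits in all, and a call that passed in all 16 is described below as made under each alternative.

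Day 21 lay close to day 28. With the same fit, 1882 probe sets (7.84%) differed between S14D and S21D and 1 (0.00417%) between S21D and S28D. These comparisons share their arrays with the one between S14D and S28D and are given side by side, not as support. The one probe set that differed between S21D and S28D belonged to GSTA1, a glutathione transferase, and is described with its family below.

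Genes were then read by their roles, in 44 lists written from textbook knowledge, each gene by its brightest probe set and at an adjusted p below 0.05 alone. Over the 6765 named genes read in this way, 15% were higher and 14.8% lower in S28D, and the median difference was 0. The lists that lay furthest below 0 were those of the lysosome, the crypt stem cell and fat absorption, and those furthest above were the B cell, cell cycle, Rac and DNA replication lists.

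**Figure D2:**
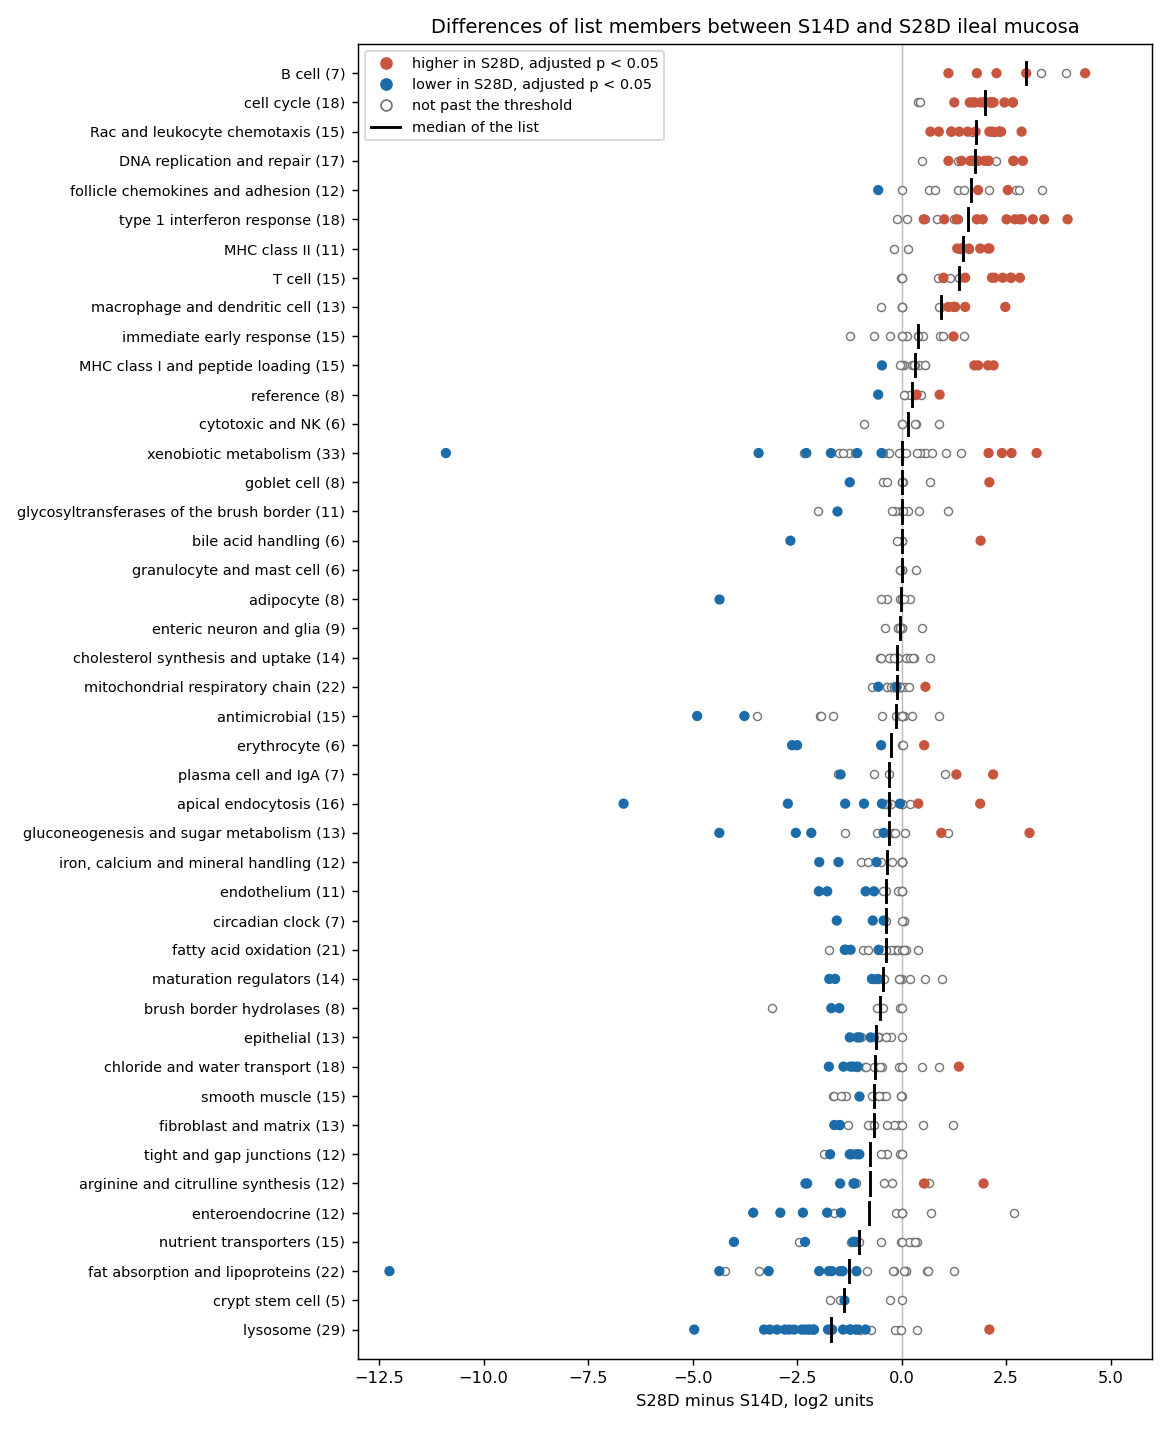
Difference between S28D and S14D in log2 units (horizontal axis) for each measured member of the 44 lists (rows, number of members in parentheses), filled red or blue where higher or lower at an adjusted p below 0.05 and open otherwise, with the median of each list as a bar. The lysosome lies lowest with a median of -1.68 and 22 of 29 members lower, and the B cell list highest with a median of 2.98.

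The genes of lysosomal digestion fell together. Of the 29 measured, 22 were lower in S28D, against 14.8% of named genes, and the median difference was -1.68. The steepest fall was that of NEU1, the lysosomal sialidase, which removes the sialic acid that caps milk oligosaccharides and glycoproteins. NEU1 signal was 10.10, 10.82 and 11.46 in the S14D arrays and 6.05, 5.29, 5.92 and 6.07 in the S28D arrays, a fall of 31.2-fold (log2 difference -4.96, SE 0.53, adjusted p = 3.44e-05). The groups lay more than 4 log2 units apart. Legumain (LGMN), an asparaginyl endopeptidase, was 14.14 to 14.92 in S14D and 10.84 to 11.79 in S28D, or 9.77-fold lower (log2 difference -3.29, SE 0.32).

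Other hydrolases of sugar chains followed. The fucosidase FUCA1 measured 13.21, 14.00 and 14.44 at day 14 and 10.57, 10.95, 10.46 and 10.94 at day 28, which is 8.90-fold lower. HEXA, the alpha subunit of beta-hexosaminidase, went from between 12.70 and 13.21 to between 9.81 and 10.27, 7.91-fold lower with a small error (log2 difference -2.98, SE 0.23, adjusted p = 1.24e-06). Neither pair of groups overlapped. The acid ceramidase ASAH1 differed by -2.79, but its S14D values of 4.70, 6.79 and 7.63 were spread widely and the difference did not pass the threshold without S14D replicate 2 or without replicate 3.

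The lysosomal membrane and the proteases moved less in size but as regularly. LAMP1, the most abundant glycoprotein of the lysosomal membrane, was 13.43 to 13.82 in S14D and 11.72 to 12.12 in S28D, 3.39-fold lower (adjusted p = 1.09e-04), and LAMP2 was 1.81-fold lower. The protease cathepsin B (CTSB) fell 2.36-fold, from between 13.91 and 14.27 to between 12.66 and 13.08. Of the 22 falls, 19 passed the threshold whichever array was left out and 16 with the B cell covariate.

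Of the 29 lysosomal differences 2 were positive, both at an unadjusted p below 0.05 in limma, and of these only GM2A was called. GM2A, the activator protein that presents gangliosides to beta-hexosaminidase, was 10.30, 9.90 and 9.38 in S14D and 11.57, 11.99, 12.10 and 12.19 in S28D (log2 difference 2.1, SE 0.37, adjusted p = 0.00157). It was named after its value was seen, as the one member called higher. The epithelial marker list, which holds genes of all enterocytes, had a median of -0.62 with 4 of 13 members lower, and its summed signal was 122 to 147 in S14D and 72.5 to 126 in S28D, in units of 1000. Its part in the lysosomal falls was not tested. By day 21 the lysosome list already lay -1.48 (median) from S14D, and it lay a further -0.24 lower at day 28.

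**Figure D3:**
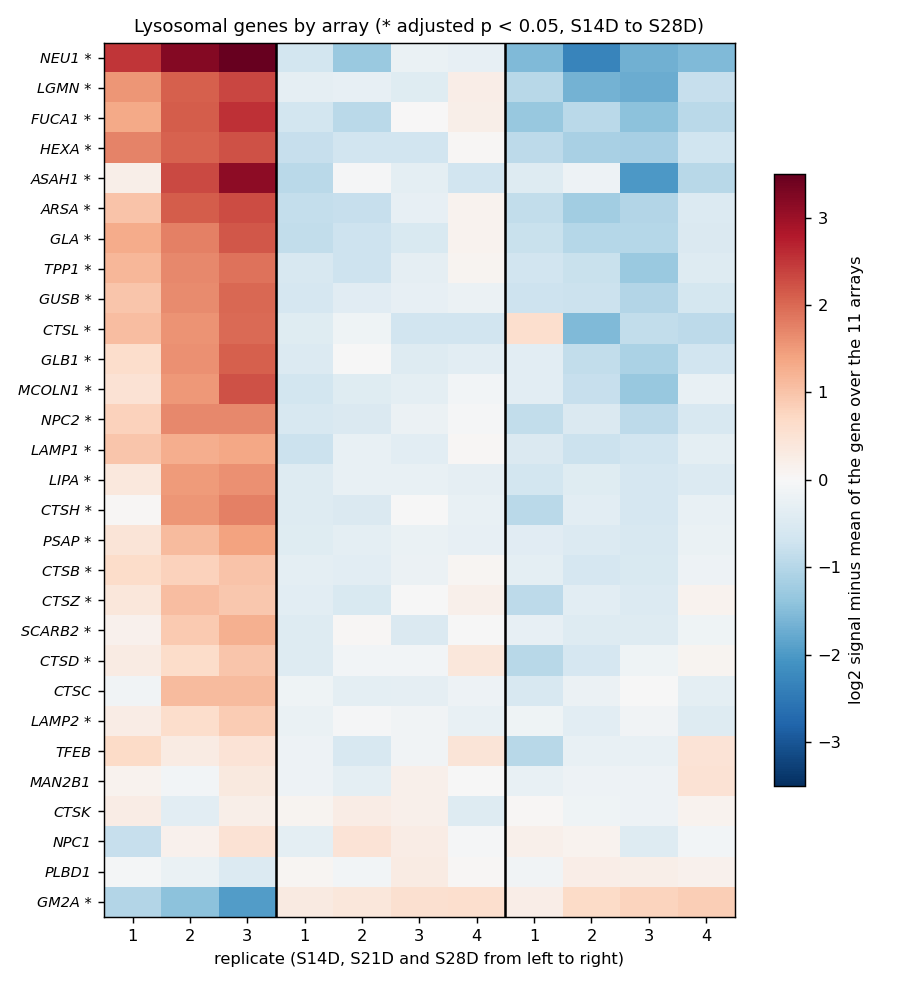
The 29 measured lysosomal genes (rows) in the 11 arrays of S14D, S21D and S28D (columns), coloured by log2 signal minus the mean of the gene over these arrays, with a star where S14D and S28D differed at an adjusted p below 0.05. Of the 29 differences between S28D and S14D 27 were negative, 22 of them starred. GM2A in the last row is the starred one of the 2 positive ones.

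The apical endocytic system, which feeds these lysosomes, was lower only in some of its parts. Of its 16 measured members 6 fell and 2 rose, against 14.8% and 15% of all named genes, with a median of -0.30. DAB2, the clathrin adaptor that binds the tails of LDL receptor family members, showed one of the deepest falls on the array. Its signal was 13.73, 14.23 and 14.34 in S14D, between 8.14 and 11.32 in S21D, and 8.44, 7.90, 6.83 and 6.64 in S28D (log2 difference -6.65, SE 0.94, adjusted p = 3.66e-04), and its other probe sets differed by -4.74 and -4.33. The S21D mean of 9.68 lay between the ends of the span, but S21D replicate 2 (8.14) lay within the S28D range. On the probe set that differed by -4.33, the means of S21D and S28D were both 2.09. Amnionless (AMN), the partner that brings cubilin to the cell surface, was 10.96 to 11.60 at day 14 and 8.14 to 9.17 at day 28, 6.61-fold lower, a difference that did not pass with the B cell covariate.

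RAB11A, a GTPase of recycling endosomes, was 2.54-fold lower in S28D (adjusted p = 0.00127). The heavy chain of the neonatal Fc receptor, FCGRT, which carries IgG across epithelia, was 12.96, 13.21 and 13.46 in S14D and 12.80, 12.08, 11.95 and 12.42 in S28D. Its difference of -0.90 (adjusted p = 0.00945) was not past the threshold without S14D replicate 3. The receptor LRP2 was at or near the lowest value in all 7 arrays, so that its difference of -0.04 has no weight although it passed the test. HIP1R, which links clathrin coats to actin, was higher in S28D by 1.88, with S14D values of 7.91, 7.04 and 5.56, and its call was lost without S14D replicate 2 or 3.

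The deepest falls of all named genes ended at the lowest value of the table. APOC2, the apolipoprotein that activates lipoprotein lipase, was 13.78, 14.57 and 14.74 in S14D and between 2.08 and 2.2 in the S28D arrays (log2 difference -12.25, SE 1.68, adjusted p = 2.91e-04). In S21D its values were 3.09, 2.08, 10.46 and 10.85, so that arrays of both kinds stood side by side at day 21. CBR1, a carbonyl reductase that handles quinones and prostaglandins, was 12.04, 12.81 and 14.10 in S14D and 2.08 in all S28D arrays, and in S21D it was 4.77, 2.08, 9.23 and 8.22. The same 2 S21D arrays, replicates 3 and 4, held the higher values of both genes. Since gcRMA gives no lower values, the size of these differences depends on where its floor lies, and no fold is given.

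ITIH4, a heavy chain of the inter-alpha-trypsin inhibitor family, and KLHDC7A, a kelch domain protein, were already at the floor at day 21. ITIH4 was 7.97, 8.74 and 9.92 in S14D and 2.09 or 2.1 in every S21D and S28D array (log2 difference -6.78, SE 0.28, adjusted p = 1.41e-09). KLHDC7A was 6.83, 7.91 and 7.19 in S14D and 2.08 in all 8 S21D and S28D arrays (log2 difference -5.23, adjusted p = 2.82e-11). No S21D or S28D array of either gene lay clearly above the floor. Their standard errors pool all groups, including those that do not vary because they sit at the floor, and are therefore smaller than the spread of the S14D arrays alone. In all, 179 of the 1470 lower probe sets had an S28D mean within 1 log2 unit of the floor.

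Folate uptake was represented by a receptor and a transporter that both fell. FOLR2, a folate receptor, measured 9.47, 10.22 and 10.31 in S14D, 5.69 to 6.40 in S21D and 5.21, 4.97, 4.72 and 5.22 in S28D, 31.3-fold lower at day 28 than at day 14 (log2 difference -4.97, SE 0.23, adjusted p = 4.57e-09). SLC46A1, the proton-coupled folate transporter of the enterocyte, was 7.17, 7.99 and 9.18 in S14D and 4.30, 3.80, 3.62 and 4.69 in S28D, 16.1-fold lower (adjusted p = 1.27e-04). Both kept their call under every alternative fit.

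The 15 largest falls held further genes of unlike roles. The uroplakin UPK3A, best known as a membrane plaque protein of the urothelium, was 9.26 to 10.00 at day 14, 4.40 to 8.62 at day 21 and 2.57 to 4.22 at day 28. MMP20, a matrix metalloproteinase, was 34.3-fold lower in S28D (log2 difference -5.10, SE 0.63), FBXL2, an F-box protein of ubiquitin ligases, 30.7-fold, and the actin-binding LIM protein ABLIM3 26.9-fold. All 4 were called under each alternative, and groups without overlap were a condition of their choice. FBXL2 and ABLIM3 had S28D means of 2.87 and 2.64, near the floor, so that the size of their folds depends on it.

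**Figure D4:**
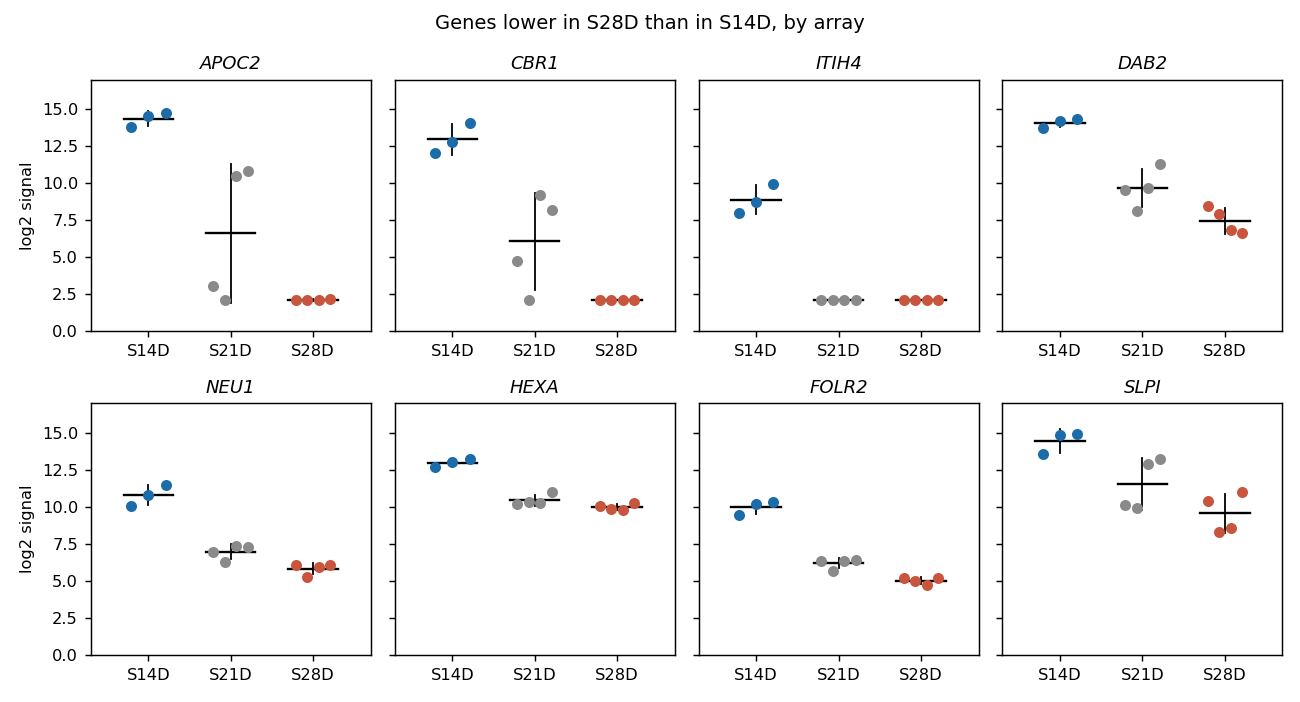
Log2 signal (vertical axis) of genes lower in S28D than in S14D, by array (points), with group means (horizontal bars) and SD (vertical bars) for S14D (n = 3), S21D (n = 4) and S28D (n = 4). APOC2 falls from 13.78 or above to 2.2 or below, with S21D arrays at either level.

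Genes of fat absorption followed the same direction. Of 22 measured genes for the uptake, esterification and export of fat, 9 fell and the median was -1.25. GPD1, which makes the glycerol backbone of triglycerides, was 6.84, 7.38 and 7.86 in S14D and 2.41 in 3 of the 4 S28D arrays, with 4.79 in replicate 4 (log2 difference -4.36, SE 0.74, adjusted p = 0.00138). ACSL3, an acyl-CoA synthetase of lipid droplets, was 12.56, 13.68 and 14.32 in S14D and 10.05 to 10.72 in S28D, 9.09-fold lower. The terminal enzymes of triglyceride synthesis, DGAT1 and DGAT2, were 3.33-fold and 3.92-fold lower, and both calls were lost when S14D replicate 2 or 3 was left out.

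The structural apolipoproteins varied with an S28D array. APOA1, the main protein of high density lipoprotein, was 15.45 to 15.89 in S14D and 14.35 to 14.37 in S28D replicates 1 to 3, but 15.43 in replicate 4 (log2 difference -1.08, adjusted p = 0.0307). APOA4, secreted on chylomicrons, was 8.99, 11.17 and 11.55 in S14D, 5.20 to 5.51 in the first 3 S28D arrays and 9.26 in replicate 4, a difference of -4.22 that did not pass (adjusted p = 0.0536). The core protein APOB differed by -1.49 (adjusted p = 0.0544). S28D replicate 4 thus carried the highest apolipoprotein signals of its group. Of the 9 falls, 4 were left without S14D replicate 2 or 3 and without S28D replicate 2 or 3, and 2 were made again with the B cell covariate.

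Of 21 enzymes of fatty acid oxidation and ketogenesis 4 fell, near the share of all named genes (14.8%), and the median was -0.38. ACADS and ACADM, the short- and medium-chain acyl-CoA dehydrogenases, were 2.56-fold and 2.32-fold lower, and HADH, which acts on the resulting hydroxyacyl chains, 2.55-fold lower. ACADS lay between 9.29 and 9.63 in S14D and between 7.86 and 8.58 in S28D. CPT1A, which controls the entry of fatty acids into mitochondria, differed by 0.10 (adjusted p = 1.0). Of the 14 cholesterol synthesis genes, limma called 0 at an adjusted p, 0 passed at an unadjusted p below 0.05 and 0 in the methods' t-test.

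Sugar metabolism held changes in both directions, with 4 of 13 genes lower and 2 higher, against 14.8% and 15% of all named genes. The share of rises was near that of all named genes. GALK1, the kinase that opens galactose metabolism, was 5.34, 5.01 and 5.12 at day 14 and 2.83, 3.02, 2.6 and 3.53 at day 28, 4.47-fold lower (adjusted p = 5.78e-04). PCK2, the mitochondrial PEP carboxykinase, was 5.77-fold lower. PGAM2, the muscle type of phosphoglycerate mutase, was 2.80 or 2.81 in the S14D arrays and 4.73 to 6.38 in S28D (log2 difference 3.06, SE 0.59, adjusted p = 0.00287).

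Amino acid metabolism showed the enzymes of citrulline synthesis lower. Of the 12 genes of arginine and citrulline synthesis 5 fell and 2 rose, against 14.8% and 15% of all named genes. CPS1 and OTC, the mitochondrial enzymes that make citrulline, were 2.77-fold and 4.92-fold lower, ALDH18A1, which makes their precursor from glutamate, 2.22-fold lower, and ASL, which releases arginine, 4.79-fold lower. OTC was 9.56, 10.29 and 10.22 in S14D and 8.95, 7.14, 6.57 and 8.25 in S28D, without overlap. The cationic amino acid transporter SLC7A1 was higher in S28D by 1.96. Without S14D replicate 3 the list had 1 fall and without replicate 2 it had 3. In the former case the calls of OTC, ASL, ALDH18A1 and SLC7A1 were lost, and that of CPS1 (adjusted p = 0.00599) was lost with the covariate.

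Of 8 measured hydrolases and partners 2 fell: the metalloprotease meprin beta (MEP1B), from between 14.61 and 15.24 to between 12.61 and 13.64, or 3.20-fold, and the aminopeptidase XPNPEP2, 2.82-fold. The gamma-glutamyltransferase GGT1 had the largest difference of the list, -3.10 with an SE of 1.56, and did not pass (adjusted p = 0.182), with 7.72, 7.49 and 8.83 in S14D and 3.05 to 6.53 in S28D. The abundant peptidases ANPEP, DPP4 and ENPEP differed by -0.44, -0.58 and -0.01, and their groups overlapped. Lactase and sucrase-isomaltase were not analysed here, since no probe set carried their symbols. Of 15 nutrient transporters 5 fell, among them the nucleoside transporter SLC28A1 (4.94-fold lower, adjusted p = 0.00833) and the amino acid carriers SLC7A9 and SLC7A7. The 5 falls became 2 without S14D replicate 3 and 3 without S14D replicate 2 or S28D replicate 3, and SLC7A9 and SLC7A7 were lost in each of these. The sodium-glucose transporter SLC5A1 was 13.22 to 13.62 in S14D and 13.26 to 14.23 in S28D, a difference of 0.37 (adjusted p = 0.366).

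Of 33 detoxification genes 6 fell and 4 rose, shares near those of all named genes (14.8% and 15%), and the median was 0. Without S14D replicate 3 the counts were 2 and 1, and without S14D replicate 2 they were 3 and 2. Beside CBR1, the glutathione transferase GSTM3 was 9.26, 10.85 and 10.30 in S14D and 7.89, 3.34, 7.52 and 8.12 in S28D, a difference of -3.42 that was not called without S14D replicate 2 or 3. The largest rise was that of UGT2B31, a glucuronosyltransferase. One of its probe sets was 2.87, 2.52 and 2.87 in S14D and 7.81, 8.28, 7.17 and 5.93 in S28D (log2 difference 4.54, SE 0.66, adjusted p = 4.33e-04), and its brighter one differed by 3.23. Every S28D array lay more than 3 log2 units above the S14D arrays on the former, and both probe sets passed under each alternative.

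GSTA1 was the only gene called between each pair of the 3 ages, and its order was not that of age. Its signal was 8.62, 9.15 and 9.53 in S14D, 4.11, 5.18, 5.83 and 4.58 in S21D, and 11.55, 9.65, 11.39 and 13.42 in S28D. S21D lay lowest and S28D highest, with no overlap among the 3 groups. The difference was -4.17 from S14D to S21D (adjusted p = 0.00273), 6.58 from S21D to S28D (adjusted p = 0.00292) and 2.40 from S14D to S28D (adjusted p = 0.0315), the last of which was lost whichever of the 3 S14D arrays was left out. Another probe set of the gene had means of 6.81, 5.02 and 8.69 at the 3 ages, without a call from S14D to S28D (adjusted p = 0.0948).

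In bile acid handling the ileal binding protein rose. FABP6, which carries bile acids through the enterocyte, was 13.99, 14.27 and 13.27 in S14D and 15.65, 15.64, 15.80 and 15.87 in S28D, 3.72-fold higher (log2 difference 1.89, SE 0.23, adjusted p = 1.23e-04), under each alternative. It had reached 15.50 to 16.01 in S21D. ABCC2, an export pump of conjugated organic anions, was 2.90, 5.53 and 7.30 in S14D and 2.26 to 2.93 in S28D, with overlapping groups and no call when S14D replicate 2 or 3 was left out.

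Enteroendocrine genes were lower in 5 of 12 cases, with a median of -0.79. The differences ran from -3.55 to 2.7, and 3 were positive, 1 of them at an unadjusted p below 0.05 in limma. In the main fit 0 were called higher. It was 1 after median centring, without dim probe sets, in the suckling groups alone and without S14D replicate 1. The granins CHGB and SCG2, which build the secretory granule, fell 7.48-fold and 5.14-fold. SCG2 was 8.15, 8.66 and 9.48 in S14D and 7.11, 6.10, 6.01 and 6.39 in S28D (adjusted p = 6.23e-04). Of the hormones, somatostatin (SST) was 12.05 to 12.19 in S14D and 9.63 to 11.37 in S28D, 3.44-fold lower, and proglucagon (GCG) 2.73-fold lower with a call that was lost without S14D replicate 1, 2 or 3. CGA, the common subunit of the glycoprotein hormones, was 6.47, 8.24 and 7.02 in S14D and 2.59 to 2.84 in 3 S28D arrays, but 6.72 in S28D replicate 1. Without S14D replicate 2 or 3 the list had 3 falls.

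Secreted defence proteins were lower in 2 of 15 cases, a share near that of all named genes (14.8%). SLPI, the secretory leukocyte protease inhibitor, was 13.56, 14.86 and 14.96 at day 14 and 10.43, 8.28, 8.59 and 10.98 at day 28, 29.7-fold lower (adjusted p = 0.00405). DMBT1, a scavenger receptor protein that binds bacteria, was 12.54 to 13.46 in S14D and 7.66 to 10.88 in S28D, 13.5-fold lower (adjusted p = 0.00602). Neither passed with the B cell covariate, and without S28D replicate 1 the list had 4 lower members. The beta-defensin DEFB1 differed by -1.96 (adjusted p = 0.0787).

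Ion transport and junctions held smaller falls. Of 18 genes of chloride and water transport 5 fell, and CFTR, the apical chloride channel, did so close to the floor, from 3.11, 3.20 and 4.16 to between 2.08 and 2.13. The 5 falls became 1 without S14D replicate 3 and in the fit of S14D and S28D alone, and 2 without S14D replicate 2 or S28D replicate 2 or 3. KCNN4, a calcium-activated potassium channel, rose from 5.87, 5.18 and 5.45 to between 6.74 and 6.93 (log2 difference 1.37, adjusted p = 0.00749). Of 12 junction genes 5 fell, with a median of -0.75, near that of the epithelial list. Occludin (OCLN), a strand protein of tight junctions, was 3.27-fold lower and claudin 7 (CLDN7) 2.02-fold lower, and both calls were lost without S14D replicate 3. The junction list had 0 falls without that array and 2 without S14D replicate 2 or S28D replicate 2 or 3. Of the epithelial markers, CDH17, CLDN4, CLDN7 and CDH1 were lower by 0.74 to 1.24 log2 units, and each of these 4 calls was lost without S14D replicate 3.

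Of 14 regulators of maturation 4 fell, with a median of -0.44, and 2 were higher at an unadjusted p below 0.05 in limma. Among the falls, SGK1, a kinase induced by corticosteroids, was 14.31 to 14.93 in S14D and 12.77 to 13.10 in S28D, 3.31-fold lower (adjusted p = 0.00308). GATA6, a transcription factor of the intestinal epithelium, was 3.00-fold lower. Both calls were lost with the B cell covariate. Of 11 glycosyltransferases 1 fell, a share below that of all named genes (14.8%), and the median was 0. This was B4GALT1, a galactosyltransferase, 2.92-fold lower (adjusted p = 0.00231) under each alternative. Of 12 genes of iron, calcium and mineral handling 3 fell. Among them FTL, the light chain of ferritin, was 15.14 to 15.28 in S14D and 14.43 to 14.80 in S28D. It was a small fall of 1.52-fold with a small error (SE 0.08 on the log2 scale).

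On the rising side, the type 1 interferon response kept most of its calls with the B cell covariate. Of 18 genes 12 were higher in S28D, against 15% of named genes, and the median was 1.58. XAF1, a proapoptotic interferon-induced protein, was 3.68, 5.42 and 4.54 in S14D and 8.98, 7.15, 9.49 and 8.44 in S28D, 15.7-fold higher (log2 difference 3.97, SE 0.60, adjusted p = 5.94e-04). ISG15, a ubiquitin-like modifier, was 8.77, 9.26 and 8.85 in S14D and 12.09, 10.82, 13.53 and 11.95 in S28D, 8.79-fold higher (adjusted p = 0.00208). In S21D it lay between, at 10.24 to 11.57.

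The antiviral GTPases MX1 and MX2 were 7.34-fold and 10.6-fold higher, IFIT1, which binds viral RNA, 7.09-fold higher, and USP18, the protease that removes ISG15, 5.71-fold higher. Each had S28D arrays above every S14D array. The S28D arrays differed among themselves in this list more than the S14D arrays did: the interferon score was 0.35, -0.80, 1.1 and -0.11 in S28D replicates 1 to 4 (SD 0.80) and -2.1, -1.36 and -1.49 in S14D (SD 0.39). CXCL9, an interferon-induced chemokine and the largest rise among all named genes, showed the same spread, with 6.30, 7.54 and 6.0 in S14D and 12.49, 8.27, 13.70 and 11.36 in S28D (log2 difference 4.84, SE 0.94, adjusted p = 0.00308). With each array left out in turn the list had 11 to 15 higher members, and with the B cell covariate 9 of the 12 calls were made again. When only S14D and S28D entered the fit, 4 members passed.

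**Figure D5:**
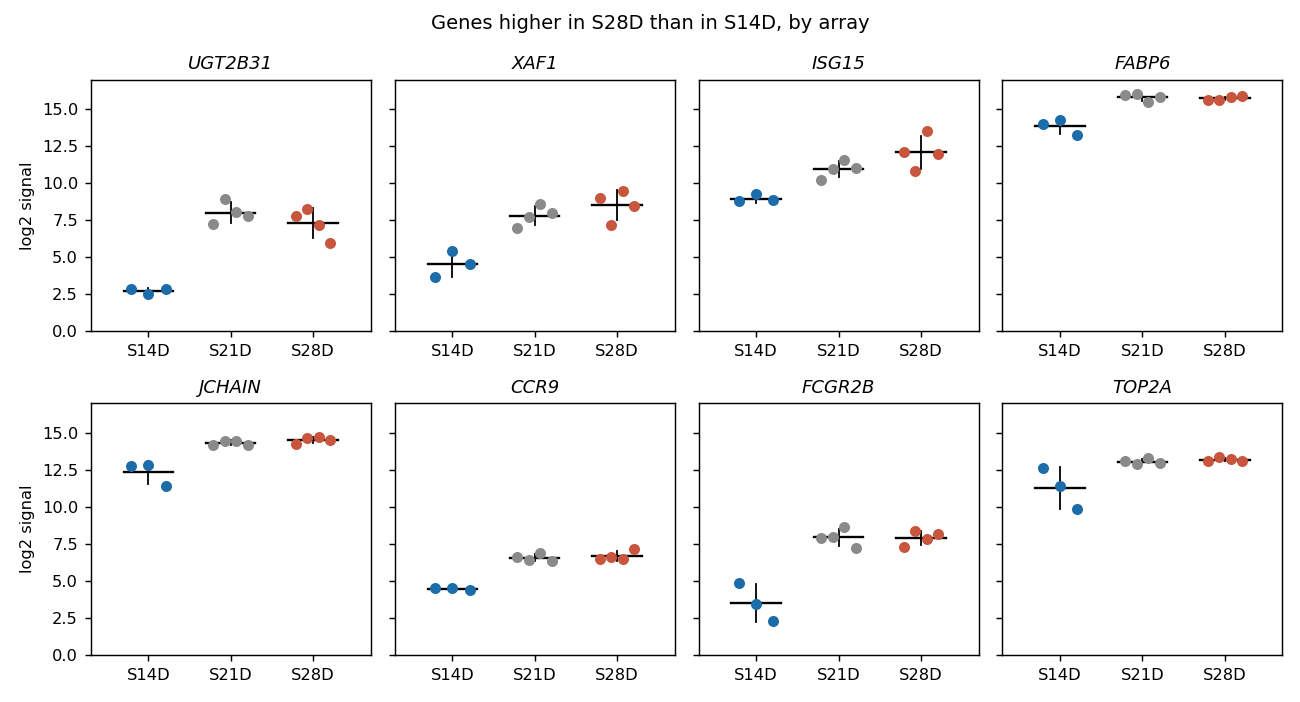
Log2 signal (vertical axis) of genes higher in S28D than in S14D, by array (points), with group means (horizontal bars) and SD (vertical bars) for S14D (n = 3), S21D (n = 4) and S28D (n = 4). XAF1, ISG15 and FABP6 show every S14D array below all S28D arrays, while FCGR2B (4.83, 3.44 and 2.29) and TOP2A (12.66, 11.41 and 9.84) are spread over the S14D replicates.

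Of 15 genes of class I presentation and peptide loading 4 were higher and 1 lower, with a median of 0.31. TAP1, which pumps peptides into the endoplasmic reticulum, was 9.71 to 10.03 in S14D and 11.15 to 12.72 in S28D, 4.60-fold higher (adjusted p = 1.87e-04). The immunoproteasome subunit PSMB8 was 3.35-fold higher, and SLA-8, a class I gene, was 8.46, 8.29 and 8.41 in S14D and 10.46, 9.82, 10.15 and 10.45 in S28D, 3.56-fold higher with a tight error (SE 0.16, adjusted p = 5.02e-06). These 3 passed under every alternative. The member that was lower was CALR, a chaperone of class I folding, at -0.47 (adjusted p = 0.0277), with overlapping groups and a call that was lost without S14D replicate 2 or 3 and without S28D replicate 1, 2 or 4. The classical genes SLA-1 and SLA-2 differed by 0.26 and 0.29 and did not pass. The light chain B2M differed by 0.06 on its brightest probe set and did not pass, but of its 9 probe sets 3 passed and did so in both directions, at 0.68, -0.62 and -3.21. Without S28D replicate 2 the list had 7 higher members. Related SLA genes are alike in sequence, and how far their transcripts share these probe sets is not known here.

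Of 11 class II genes 7 were higher, with a median of 1.46. The alpha chain SLA-DRA was 11.14, 11.15 and 11.07 in S14D and 12.45 to 12.81 in S28D, 2.74-fold higher (adjusted p = 0.0307), and CD74, the invariant chain, was 9.66, 8.53 and 7.67 against 10.11 to 11.27, 4.19-fold higher. The peptide editor SLA-DMA differed by 2.1 on its listed probe set and by -0.88 on a brighter one in S14D, so that its direction rests on the probe set chosen. Each of the 7 calls was lost without S14D replicate 3 and with the B cell covariate, and 4 members were higher without S14D replicate 2 or S28D replicate 3. The class II score was -0.45, -0.99 and -1.28 in S14D replicates 1 to 3, in the order of the B cell score.

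Macrophage and dendritic cell genes were higher in 6 of 13 cases. CD86, the costimulatory ligand, was 7.04, 5.89 and 5.33 in S14D and 8.46 to 8.70 in S28D, 5.60-fold higher (adjusted p = 4.54e-04). TYROBP, an adaptor of myeloid receptors, was 9.24, 9.07 and 9.0 in S14D and 10.20, 10.10, 10.32 and 10.73 in S28D, 2.36-fold higher (adjusted p = 1.71e-04). The S14D arrays of TYROBP lay close together (SD 0.12), while those of CD86 were in the order of the B cell score, and both genes passed under each alternative. Of the 6 calls 2 were made again with the B cell covariate. The complement chain C1QC was 2.87-fold and FCER1G, a signalling chain of Fc receptors, 2.41-fold higher. CD14 and ITGAM were near the floor in all 7 arrays, and the scavenger receptor CD163 differed by 0.94 (adjusted p = 0.467).

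Of 15 T cell genes 8 were higher, with a median of 1.38. The chemokine receptor CCR9, which brings lymphocytes to the small intestine, was 4.51, 4.50 and 4.36 in S14D and 6.47, 6.62, 6.45 and 7.17 in S28D, 4.66-fold higher (adjusted p = 7.44e-04), under each alternative. The coreceptor CD8A was 6.17, 5.04 and 5.85 against 7.57, 7.93, 8.76 and 8.96, 6.13-fold higher (adjusted p = 0.00415). CD3E and CD3G, chains of the T cell receptor complex, were 4.48-fold and 2.00-fold higher, and CD2, an adhesion receptor, 5.37-fold higher. The largest change of the list was that of CD247 (7.12-fold higher), and LCK was 6.09-fold higher. Both calls were lost without S14D replicate 2 or 3, and that of CD247 also without S28D replicate 2, 3 or 4. CD3D differed by 0.87, with overlapping groups, and did not pass (adjusted p = 0.171). Of the 8 calls 5 held whichever array was left out, and that of CCR9 alone with the B cell covariate. Of the cytotoxic list, limma called 0 of 6 genes, with 0 at an unadjusted p below 0.05 and 0 in the methods' t-test.

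Of 7 genes of plasma cells and IgA 2 were higher and 1 lower in S28D, against 15% and 14.8% of named genes. The median was -0.3, and 4 of the 7 differences were negative. The J chain, which joins IgA dimers, rose most. JCHAIN was 12.80, 12.81 and 11.44 in S14D and 14.23, 14.65, 14.75 and 14.51 in S28D, 4.55-fold higher (log2 difference 2.19, SE 0.34, adjusted p = 6.71e-04), under each alternative, and it was 14.21 to 14.49 at day 21. PIGR, the receptor that carries IgA through the epithelium, was 9.14, 7.98 and 8.27 in S14D and 8.99 to 9.98 in S28D, a difference of 1.04 that did not pass (adjusted p = 0.117). TNFRSF17, a receptor of plasma cells, was higher by 1.31 log2 units, a call that was lost without S14D replicate 1, 2 or 3. SDC1, present on plasma cells and on epithelium, was lower by 1.46 log2 units. Its call was lost without S14D replicate 3 and with the B cell covariate.

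B cell genes rose in 5 of 7 cases, and no other list had a higher median (2.98). The S14D values carried the spread. The inhibitory Fc receptor FCGR2B was 4.83, 3.44 and 2.29 in S14D and 7.28 to 8.41 in S28D (log2 difference 4.39, SE 1.17, adjusted p = 0.0163), and SPIB, a transcription factor of B cells, was 11.04, 9.65 and 8.02 against 11.14 to 12.18. CD79B, a chain of the B cell receptor, was 11.26, 9.34 and 3.45 in S14D and 11.22 to 12.29 in S28D, and the difference of 3.93 had an SE of 1.91 and did not pass (adjusted p = 0.17). BTK differed by 3.34 and did not pass either (adjusted p = 0.073). Of the called genes, FAM129C had overlapping groups. On CD79B and SPIB, S14D replicate 1 lay beside the lowest S28D array and replicate 3 far below. Each of the 5 calls was lost without S14D replicate 2 and without replicate 3. The B cell covariate is made of these 7 genes and tells nothing about them.

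The score of the chemokines and adhesion molecules of the follicle was -0.0, -1.23 and -2.6 in S14D replicates 1 to 3, in the order of the B cell score. Of 12 genes 2 were higher, a share near that of all named genes (15%). They were the integrin chain ITGB2 (5.83-fold) and its ligand ICAM2 (3.57-fold), and both calls were lost without S14D replicate 3. CCL21, near the floor, was lower by 0.56 log2 units. CCL19 differed by 3.36, with overlapping groups, and did not pass (adjusted p = 0.199). CXCL13, which draws B cells into follicles, was 11.49, 12.62 and 9.45 in S14D and 13.38, 14.35, 14.30 and 13.63 in S28D. All S28D arrays lay above all S14D arrays, yet with an SE of 1.86 the difference of 2.73 did not pass (adjusted p = 0.365). The S14D values of CXCL13, highest in replicate 2, were not in the order of the B cell score. Its SE pools the spread of all groups, and its SD was 1.6 in S14D and 0.49 in S28D. ICAM1 and VCAM1, adhesion molecules of endothelium and stroma, differed by 1.5 (adjusted p = 0.0546) and 1.36 (adjusted p = 0.1). The class II gene SLA-DOA was 3.37, 2.08 and 2.08 against 2.81 to 4.93, a difference of 1.39 (adjusted p = 0.228).

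CXCL13, ICAM1, VCAM1 and SLA-DOA belong to the genes the study also followed by PCR. Of the others, VAV1, the guanine nucleotide exchange factor of Rac in blood cells, was 10.01, 8.97 and 7.36 in S14D and 10.54, 11.40, 11.30 and 11.24 in S28D, 5.07-fold higher (log2 difference 2.34, SE 0.67, adjusted p = 0.0227), and its call was lost without S14D replicate 2 or 3. ISG15 and USP18 are given above, and IFIT2, another interferon-induced RNA-binding protein, differed by 1.26 (adjusted p = 0.15), with 9.34 to 12.24 in S28D. The reference gene ACTB was 13.98 to 14.24 in S14D and 14.13 to 14.43 in S28D (difference 0.08, adjusted p = 0.855). IFI6 was not matched to a probe set.

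Of 15 genes of Rac signalling and leukocyte chemotaxis 13 were higher, with a median of 1.77. RAC2, the Rac GTPase of blood cells, was 8.43, 8.16 and 7.81 in S14D and 9.19 to 10.29 in S28D, 2.99-fold higher (adjusted p = 0.00574), and it passed whichever array was left out. CYBB and NCF1, subunits of the phagocyte oxidase, were 7.30-fold and 5.20-fold higher, but CYBB was 11.04, 9.08 and 7.49 in the S14D arrays. The list kept 2 of its 13 calls in every leave-out. Its score was -0.35, -1.30 and -2.03 in S14D replicates 1 to 3 and 0.11 to 0.82 in S28D, in the order of the B cell score in S14D. The study chose this pathway on these samples, so that its direction is not independent evidence.

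Cell division genes rose in nearly every case. Of 18 cell cycle genes 16 were higher (median 2.00), and of 17 genes of DNA replication and repair 14 were higher (median 1.76). TOP2A, the topoisomerase of dividing cells, was 12.66, 11.41 and 9.84 in S14D and 13.08 to 13.36 in S28D, 3.72-fold higher (adjusted p = 0.0144). The mitotic kinase AURKB was 8.41, 6.64 and 4.15 in S14D and 8.56 to 9.62 in S28D, 6.33-fold higher (adjusted p = 0.0189). TYMS, which makes thymidylate, was 6.40, 4.78 and 3.44 against 7.40 to 8.22, 7.44-fold higher (adjusted p = 0.00508), and its call held whichever array was left out.

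In all of these, S14D replicate 1 was near S28D and replicate 3 far from it. The cell cycle score was 0.02, -1.33 and -2.77 in S14D replicates 1 to 3 and 0.24 to 0.76 in S28D, and the DNA replication score 0.01, -1.30 and -2.63 against 0.19 to 0.80. Without S14D replicate 3 the numbers of higher members were 3 of 18 and 3 of 17, and without replicate 2 they were 9 and 8. With the B cell covariate, each of the 16 and 14 calls was lost. MKI67, the usual marker of cycling cells, was 10.97, 11.09 and 11.08 in S14D and 11.21 to 11.60 in S28D, a difference of 0.39 without overlap that did not pass (adjusted p = 0.142). The replication helicase gene MCM5 was 9.23, 7.33 and 4.90 in S14D and overlapped with S28D (9.21 to 10.35).

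Several of the largest named rises shared this S14D pattern. UPK1B, a uroplakin, was 6.62, 3.97 and 2.46 in S14D and 8.28 to 9.28 in S28D, 22.8-fold higher. CD1.1, which presents lipid antigens, was 6.65, 5.01 and 3.06 against 8.47 to 9.45, and ZP3, a gene of the egg coat family, 6.97, 4.51 and 2.87 against 8.6 to 9.52. Each of the 3 calls was lost without S14D replicate 2 or 3. CAND2 and the actin bundling protein of leukocytes LCP1 rose by 3.75 and 3.60 log2 units under the same condition, and the peptide transporter SLC15A2 by 3.96 (adjusted p = 0.0483), with 10.19, 8.50 and 5.08 in S14D.

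PITPNC1, a phosphatidylinositol transfer protein, was 4.88, 3.16 and 2.11 in S14D and 6.52 to 7.49 in S28D, 13.8-fold higher (adjusted p = 0.00567), and it passed under each alternative. PCOLCE2, an enhancer of procollagen processing, and the unnamed locus LOC396781 were 15.6-fold and 18.2-fold higher and lost their call without S14D replicate 3. Of the S14D replicates, replicate 3 was the lowest on each of these rises.

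Genes of the supporting tissue were lower or did not pass, beside 14.8% of all named genes lower. Of 13 fibroblast genes 3 fell, among them decorin (DCN), a proteoglycan of the matrix, from between 11.91 and 12.46 to between 9.89 and 11.38, or 3.05-fold (adjusted p = 0.00435). The differences of this list ran from -1.61 to 1.24, and 2 were positive, 1 of them at an unadjusted p below 0.05. Of 11 endothelial genes 4 fell, and 2 without S14D replicate 3. LYVE1, the hyaluronan receptor of lymphatic vessels, was 7.37, 7.74 and 8.44 in S14D and 6.28, 5.38, 5.76 and 6.06 in S28D, 3.95-fold lower (adjusted p = 4.24e-04), under each alternative, and the junction cadherin CDH5 was 3.44-fold lower. Of 15 smooth muscle genes ACTA2 alone passed, 2.01-fold lower, a share below that of all named genes. That call was lost without any one of the 3 S14D arrays and without S28D replicate 2 or 3, and 7 of the 15 were lower when the arrays labelled S35D and 21W28D were left out of the fit. The summed smooth muscle signal was 22.5 to 28.1 in S14D and 9.87 to 23.8 in S28D, in units of 1000, and the share of deeper layers in each scraping was not tested.

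The crypt and goblet lists were small. Of 5 crypt genes PROM1 fell, at 2.08 to 4.36 in the 7 arrays, and OLFM4, an abundant crypt protein, was 14.41 to 14.54 in S14D and 11.68 to 14.26 in S28D (difference -1.47, adjusted p = 0.0758). Of 8 goblet genes TFF2, a trefoil peptide, was 4.27-fold higher and SPINK4, a protease inhibitor of goblet cells, 2.37-fold lower. These shares were near those of all named genes (15% and 14.8%). The groups of SPINK4 overlapped and its call was lost without S14D replicate 2 or 3 and without S28D replicate 2, 3 or 4, and that of TFF2 was lost without S14D replicate 1. S100G, the vitamin D-dependent calcium-binding protein of the enterocyte, was 15.03 to 15.44 in S14D and 14.00, 12.16, 12.38 and 14.43 in S28D, 3.92-fold lower (adjusted p = 0.0302), with a call that was lost without S14D replicate 2 or 3. Of the 7 clock genes BHLHE40, NFIL3 and CRY2 were lower by 0.43 to 1.55 log2 units, with 0 calls left without S14D replicate 3 and 1 without S14D replicate 2 or S28D replicate 2, 3 or 4, and neither labels nor methods state the hour of sampling.

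Probe sets of a gene did not always give the same answer. RACK1, a scaffold of the small ribosomal subunit, was 13.35 to 14.19 in S14D and 2.40, 7.37, 2.45 and 8.20 in S28D on a probe set that differed by -8.70 (adjusted p = 0.00308), whereas its brighter probe set differed by 0.31. For PLBD1, a phospholipase B-like lysosomal protein, differences of -5.86 and -5.24 stood beside 0.37 on the brightest. CAPNS1, the small subunit of calpain, differed by -4.92 and -0.03, GPX4, a glutathione peroxidase, by 3.60 and 0.07, and SIX4, a homeobox factor, by 3.65 and 0.63. These 5 genes are among the 15 largest falls and the 15 largest rises, and their size holds for the probe set named and not for the gene as a whole. The sign differed between the probe sets of RACK1 and of PLBD1. Why the probe sets differ was not tested.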

How the data were processed

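Total RNA of scraped ileal mucosa, 1 piglet per array, was hybridised to Affymetrix Porcine Genome Arrays. The labels place the tissue at 75% of the length from the pylorus, whereas the methods take the last 15% of the small intestine, and which of these holds for the arrays is not known here. The authors normalized the arrays with gcRMA, which corrects the background by probe sequence, quantile normalizes and summarises probe sets, and the deposited values are log2 signals. GCOS 1.2 and GCRMA stand in the submitters' processing notes. No counts exist, so that the number of arrays limits the precision, and a value near 2.08 is a floor and not a measured level. The methods describe 4 piglets at day 14, and 3 S14D arrays were used here.

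Of 24123 probe sets, 124 controls were left out and 23999 tested. Of these, 10069 carried 1 gene symbol, 198 several and 13732 none, from the platform annotation, and 9961 of the former matched a gene table by gene ID. The main test was limma 3.58.1 in R 4.3.3 (lmFit, eBayes) over all 20 arrays with 1 mean per group and Benjamini-Hochberg adjustment over all probe sets. A probe set was called at an adjusted p below 0.05 and a change of at least 2-fold. In simulated arrays of the same group sizes, the fit recovered 46% of 100 true 2-fold changes and 86% of 100 true 4-fold changes. These were read at the adjusted p alone, and 6 of the 138 calls were false. The simulation drew independent noise with the same spread in all groups, so that unequal spread between groups was not tested. The altered probe sets were drawn from the brighter ones only, so that recovery of changes in dim probe sets was not tested. Lists were read by their brightest probe set, and scores used members reaching 4 log2 units in an array. The text names the 15 largest rises and falls with non-overlapping groups, and the genes measured by PCR. The list members it gives were drawn from up to 5 past the threshold by size and the first 3 as written in each list. Not all members drawn in this way are given in the text. The 269 named probe sets counted below include those left out. GM2A, VIL1 and GGT1 were named outside these rules, GM2A and GGT1 after their values were seen. The members and lists were chosen with earlier results of these data known. Replicates are separate piglets. The labels of S35D and 21W28D are open to doubt: by correlation with group means, 21W35D was nearer than S28D to 3 of 3 arrays labelled S35D, and S28D nearer than 21W35D to 2 of 3 labelled 21W28D. They enter only through the shared variance, and a fit without both was an alternative.

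Alternatives were a B cell covariate, fits of fewer groups, dim probe sets left out, other variance models, renewed centring or quantile normalization, gene-level summaries, the replicate number as a block, the methods' t-test and the removal of each array. No sequences or coordinates are printed, since none were given for these probe sets.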

Additional observations from a re-analysis of the deposited data

Results flagged for a closer look

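In each group of 4, the S28D array that lay far from the other 3 by Dixon's test was noted, over 202 tests of named genes and list scores. Chance alone gives about 1 in 20, and 21 were noted. Groups of 3 were not tested, so that S14D has none.

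S28D replicate 4 stood apart in genes of fat transport. APOA4 was 9.26 there against 5.20 to 5.51 in the other 3 arrays, APOA1 was 15.43 against 14.35 to 14.37, GPD1 was 4.79 against 2.41, and the fat absorption score was 0.11 against -1.07 to -0.89. Its DGAT2 value was 3.56 against 3.52, and its CD3E value, 7.65 against 6.44 to 6.56, was also high. On these genes S28D replicate 4 lay on the side of S14D for fat transport and away from it for CD3E.

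S28D replicate 1 held the high CGA value of 6.72 against 2.59 to 2.84, the highest CDH1 (13.13 against 12.66 to 12.69), and low values of SLC7A1 (10.96 against 11.82 to 11.92) and of the DNA replication score (0.19 against 0.72 to 0.80). S28D replicate 2 had the low GSTM3 value of 3.34 against 7.52 to 8.12 and a cytotoxic score of -1.88 against -0.33 to -0.09. S28D replicate 3 had UPK3A at 2.57 against 3.94 to 4.22, KCNN4 at 6.74 against 6.91 to 6.93, and an immediate early score of 0.24 against -0.20 to -0.17.

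The remaining cases lay at or near the floor and differ by small amounts: APOC2 at 2.2, ABLIM3 at 2.54 and CCL21 at 2.28 in replicate 4, ITIH4 at 2.1 in replicate 3, CD14 at 2.14 in replicate 2 and CFTR at 2.13 in replicate 1.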

How the results depend on the processing

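The 2803 called probe sets (1333 higher, 1470 lower) became 604 (180 higher, 424 lower) with the B cell score entered as a covariate, 1057 (347 and 710) when only S14D and S28D entered the fit, 948 (296 and 652) by the methods' t-test after Benjamini-Hochberg, and 5337 (2715 and 2622) without the fold minimum. Counting genes, they were 1068 (515 and 553) with 1 probe set per gene and 953 (459 and 494) with the mean of its probe sets. When each array was left out, the number ran from 1211 to 3539, with 402 to 1828 higher and 809 to 1711 lower. The lowest counts came without S14D replicate 3 (1211) and replicate 2 (1671, with 647 higher), and without S28D replicate 3 there were 884 higher. The remaining settings kept the counts within 1.5 times. Among the 181 named probe sets past the threshold, 125 lost the call with the covariate, 105 in the fit of S14D and S28D alone, 95 without S14D replicate 3 and 75 without S14D replicate 2. Over all 269 named probe sets, a turn of direction was counted where the main or the alternative fit passed. It occurred only with the covariate, for SLC15A2 (-0.19) and CD79B (-1.88), the latter without a call in the main fit. List medians were not counted in this, and that of the follicle list went from 1.67 to -0.35 with the covariate. CD79B is itself one of the 7 genes of the score. The covariate is itself lower in every S14D array than in every S28D array, so that it takes up part of the age difference by construction. With the replicate number as a block, 2299 were called (936 higher, 1363 lower). Same-numbered S14D and S28D arrays deviated with r = -0.45, -0.21 and -0.14, and the numbers were not taken to pair piglets.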
